A study of Mus musculus with 6 samples.

Results

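The genes described here are those of mouse chromosome 8. They were taken as all rows of the expression table whose locus lies on chromosome 8 and whose value reached at least 10 scaled fragments in all 6 libraries, which gave 619 of the 853 genes listed on the chromosome and of the 11002 genes of the whole table of 16440 that passed the same filter. The other 10383 genes that passed served as the comparison. Chromosome 8 carries genes of many kinds that matter in blood cells. They include the erythroid transcription factor Klf1, the cofactor of GATA factors in erythroid and megakaryocyte development Zfpm1 (FOG-1), the monocyte and dendritic cell transcription factor Irf8, the haemoglobin-binding granule protein Hp (haptoglobin), and the calcium-binding chaperone of the endoplasmic reticulum Calr (calreticulin).

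RNA sequencing compared acute promyelocytic leukemia (APL) progenitors with normal myeloid progenitors (MPs), 3 libraries each, to find the genes that differ between the leukemic cells and their normal counterparts. The MPs were sorted as Lin-Sca-1-c-Kit+ from mouse bone marrow, a gate that holds a mixture of common myeloid, granulocyte and monocyte, and megakaryocyte and erythroid precursors. The APL cells were GFP-labelled c-Kit+ cells that derived from hMRP8-PML/RARα transgenic mice, in which a promoter of myeloid cells drives the fusion gene, and had been grown by transplantation into syngeneic mice. Their GFP came from the retroviral vector MigR1, and both groups had the strain FVB N/J. The series text calls the 3 libraries of a group biological replicates. It names neither mice nor leukemias, so p-values measure the spread between these libraries. Depth was between 22976905 and 26932327 fragments in the MP libraries and between 20608715 and 28382785 in the APL libraries. MP library 3 stood apart: the median squared difference between it and the other MP libraries was 12.9 times that of counting noise, against 2.99 times between MP libraries 1 and 2 and 3.10 to 5.91 times among the APL libraries. Kit fell from 72.4 to 40.4 FPKM (fragments normalized to transcript length and library size, a level that can be compared between genes). The progenitor marker Cd34 fell from 94.5 to 1.15 FPKM, while Ly6a, the gene of Sca-1, rose from 1.36 to 2.18 FPKM. In bulk RNA, fewer cells of a type and less RNA per cell cannot be told apart.

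Most genes of chromosome 8 had a higher ratio of APL to MP than the typical gene of the other chromosomes. The chromosome held 4.54% to 4.58% of all scaled fragments in the MP libraries and 6.35% to 6.67% in the APL libraries. Calr had the largest share of fragments of any gene on it, and without Calr the shares were 4.33% to 4.40% and 5.85% to 6.17%. The log2 ratio of the mean APL to the mean MP value was then set against the median of the other genes, which was -0.09, and this difference is called the relative log2 ratio. Its median over the 619 genes was 0.56, or 1.48-fold, with quartiles at 0.20 and 0.97. The ratio lay above 0 for 512 genes (82.7%), while the other genes lay evenly on both sides of 0 by construction. The interquartile width was 0.78, beside 0.88 for the other genes, so the values of chromosome 8 had a spread of like size around a higher centre.

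**Figure D1:**
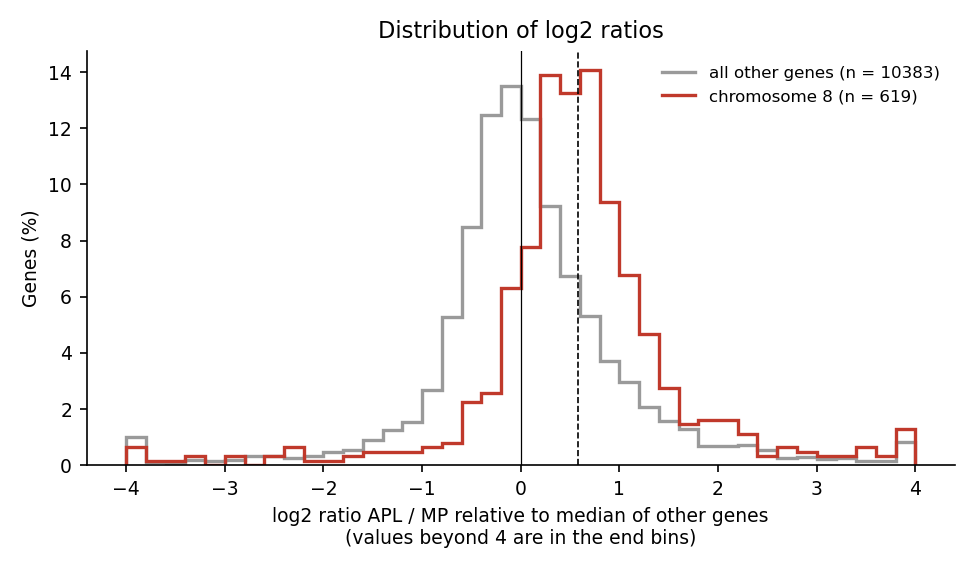
Distribution of the log2 ratio of mean APL to mean MP scaled fragments, relative to the median of the other genes (horizontal axis, log2), as the percent of genes in steps of 0.2 (vertical axis), for 619 genes of chromosome 8 (red) and 10383 other genes (grey). The dashed line marks 1.5-fold, and the median of chromosome 8, 0.56, lies just below it while both curves have long tails.

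The shift was seen in each APL library. Each library was compared with the mean of the MP libraries, leaving out itself where it was an MP library. The median of chromosome 8 minus that of the other genes was 0.56, 0.58 and 0.57 on the log2 scale in APL libraries 1 to 3. It was -0.02, -0.02 and 0.02 in MP libraries 1 to 3, so the groups did not overlap and the distance between them was many times the spread within either. Between 82.1% and 82.9% of the 619 genes lay above the median of the other genes in an APL library, and between 46.7% and 53.0% in an MP library. Without MP library 3 the median of the relative log2 ratio was 0.57. Among the other chromosomes, 18 had medians between -0.15 (chromosome 18) and 0.02 (chromosome 1), each measured against all genes off that chromosome. Chromosome 15 had 0.56.

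Genes were tested one by one with limma over all 14595 genes with enough signal, and called at an adjusted p under 0.05 and a fold change over 1.5, the fold change the study used. Of the 619 genes, 262 (42.3%) rose in APL cells and 46 (7.43%) fell. The background among the other genes was 19.4% that rose and 19.1% that fell. All 3 APL values lay above all 3 MP values for 396 genes (64%, against 30.9% of the other genes), and below them for 79 genes (12.8%, against 40.1%). Without MP library 3, 280 genes were called higher and 43 lower. The call uses the fold change as measured, whose median on chromosome 8 was 1.39-fold, just under the threshold. The count of higher calls therefore moved with the scaling, from 207 when each library was brought to the same total, where the median of all genes tested was -0.23 in place of -0.10, to 306 when libraries were scaled by the median ratio.

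The position of a gene between no change and 1.5-fold could be read for most of the chromosome from the 95% interval of its fold change. The interval, relative to the other genes, held 1.5-fold and not no change for 195 of the 619 genes (31.5%), against 13.98% of the other genes. It held no change and not 1.5-fold for 99 genes (15.99%, against 28.7%), both for 28 genes, and neither, lying wholly between them, for 49. It lay wholly above 1.5-fold for 192 genes (31.0%, against 14.9%) and wholly below no change for 56 (9.05%, against 33.1%). The precision was alike, with a median SE of 0.11 (log2) on chromosome 8 and 0.11 elsewhere.

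Near 1.5-fold, here within 0.2 of it on the log2 scale (1.31-fold to 1.72-fold), lay 170 genes (27.5%), against 12.4% of the other genes. Within the same distance of no change lay 87 genes (14.1%), against 25.8%. The 5 genes closest to 1.5-fold in the class of highest expression, described further on, were Xab2, Lyl1, Glt25d1, Cnot7 and Slc7a5. The 3 values of a group are given in the order of library number here and hereafter. Xab2, a factor of splicing and transcription-coupled repair, had 2177, 2288 and 2788 scaled fragments in the MP libraries and 3122, 3633 and 3452 in the APL libraries. Lyl1, a basic helix-loop-helix factor of blood progenitors, had 2898, 2673 and 3516 scaled fragments in the MP libraries and 3790.3, 4343 and 4694 in the APL libraries. In both genes the lowest APL library was above the highest MP library, by a margin smaller than the spread within the groups. Slc7a5, which carries large neutral amino acids into cells, had 3754, 3751 and 3910.4 scaled fragments in the MP libraries and 5175, 5584 and 5627 in the APL libraries, and Glt25d1, a collagen galactosyltransferase, had 4932, 4693 and 5225 scaled fragments in the MP libraries and 6468, 7549 and 7166 in the APL libraries. Cnot7, a deadenylase of the CCR4-NOT complex whose locus overlaps that of another gene, had 2247, 2278 and 2296 scaled fragments in the MP libraries and 3251, 2946 and 3239.8 in the APL libraries. A gene at 1.5-fold relative to the other genes lies under 1.5-fold as measured, since the median of those genes was -0.09. That none of the 5 passed the call thus followed from their choice. Their log2 fold changes as measured lay between 0.47 (Cnot7) and 0.52 (Slc7a5). The adjusted p lay between 0.000132 (Slc7a5) and 0.00452 (Lyl1), and the groups did not overlap. Without MP library 3, Xab2 and Lyl1 passed the call, with log2 fold changes of 0.61 each. Lyl1 also passed it without APL library 1 (0.59).

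Far from 1.5-fold, by more than 2 on the log2 scale, lay 25 genes above (over 6-fold higher; 4.04%, against 2.22% of the other genes) and 22 below (3.55%, against 4.73%). The far genes included regulators of erythroid cells and of monocytes, a coagulation factor and a carboxylesterase. The promoters of 3 of them, and of Zfpm1 from below the filter, are shown for the following reasons. Klf1 and F7 lay farthest from 1.5-fold among the 619 genes. Irf8, a transcription factor, and Zfpm1, a cofactor of GATA factors, both fell. The sequences are from RefSeq, build GRCm38.p6, on the plus strand, and cover 250 bases before to 50 after the RefSeq start. Capitals mark matches on either strand to the GC box GGGCGG and to AGATAA and TGATAA, forms of the site of GATA factors. TGATAA was added after the values were seen, and other forms of the site were not searched.
Klf1, chr8:84901732-84902031: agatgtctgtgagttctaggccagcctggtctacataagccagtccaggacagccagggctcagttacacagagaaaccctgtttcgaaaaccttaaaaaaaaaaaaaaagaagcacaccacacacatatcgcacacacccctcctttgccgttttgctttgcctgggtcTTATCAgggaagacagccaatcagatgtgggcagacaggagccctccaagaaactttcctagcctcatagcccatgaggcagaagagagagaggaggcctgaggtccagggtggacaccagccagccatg
Irf8, chr8:120736108-120736407: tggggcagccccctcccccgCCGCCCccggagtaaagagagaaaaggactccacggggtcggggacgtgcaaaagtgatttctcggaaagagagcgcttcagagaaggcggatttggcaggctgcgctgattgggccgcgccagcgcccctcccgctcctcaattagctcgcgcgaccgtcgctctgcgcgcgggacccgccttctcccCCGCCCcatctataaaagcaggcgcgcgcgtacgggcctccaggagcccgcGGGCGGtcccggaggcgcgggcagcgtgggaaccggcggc
F7, chr8:13025784-13026083: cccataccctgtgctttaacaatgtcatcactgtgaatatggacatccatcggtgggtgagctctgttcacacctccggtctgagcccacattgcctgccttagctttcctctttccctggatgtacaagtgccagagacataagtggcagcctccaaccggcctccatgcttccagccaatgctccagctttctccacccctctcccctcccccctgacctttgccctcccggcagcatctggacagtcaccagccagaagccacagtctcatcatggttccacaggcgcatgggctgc
Zfpm1, chr8:122281891-122282190: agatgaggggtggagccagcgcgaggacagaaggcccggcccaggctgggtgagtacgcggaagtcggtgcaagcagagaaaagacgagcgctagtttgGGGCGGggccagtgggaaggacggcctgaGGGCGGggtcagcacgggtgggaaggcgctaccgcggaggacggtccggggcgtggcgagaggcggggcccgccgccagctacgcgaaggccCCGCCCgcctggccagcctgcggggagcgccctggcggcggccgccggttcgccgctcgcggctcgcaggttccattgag

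The Irf8 and Zfpm1 promoters held 3 GC boxes each and 38 and 37 CpG dinucleotides. The Klf1 and F7 promoters held no GC box, with 3 and 5 CpG dinucleotides. A GC box was found in 35.7% of the 32851 RefSeq promoters of the same length. TGATAA was found once, in the Klf1 promoter on the minus strand, and was in 9.05% of all promoters. AGATAA was not in any of the 4 windows and was in 11.2% of all promoters. A promoter was found for 438 (70.8%) of the 619 genes, fewer than needed to compare promoters between genes near to and far from 1.5-fold, and that comparison was left out.

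Klf1 (chr8:84901928-84905295), which drives the erythroid programme, fell most among the 619 genes. It had 2805, 2938 and 3726 scaled fragments in the MP libraries and 12.96, 16.5 and 17.3 in the APL libraries, and the highest APL value was far below the lowest MP value (log2 fold change -7.57, SE 0.16, adjusted p = 5.77e-09). Ank1, the ankyrin that ties the red cell membrane to its skeleton, followed with 3192, 3301 and 2958 scaled fragments in the MP libraries and 14.1, 13.9 and 20.98 in the APL libraries (log2 fold change -7.53, SE 0.17, adjusted p = 6.81e-09). Irf8 (chr8:120736376-120756692) had 3093, 2519 and 3285 scaled fragments in the MP libraries and 87.2, 114 and 91.3 in the APL libraries (log2 fold change -4.91, SE 0.14, adjusted p = 1.83e-08), and its level fell from 40.9 to 1.35 FPKM. In these 3 genes the groups lay far apart compared with the spread within each of them.

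The other decreases among the 6 largest were in genes of unlike function. Rltpr, a regulator of actin capping whose locus overlaps that of another gene, fell by 4.39 (log2, SE 0.18, adjusted p = 9.87e-08), with no overlap between the groups. Gpr56, an adhesion receptor of blood stem and progenitor cells, had 5502, 6162 and 7723 scaled fragments in the MP libraries and 488, 576 and 448 in the APL libraries (log2 fold change -3.67, SE 0.14, adjusted p = 6.41e-08). Lpl, the lipoprotein lipase, had 414, 200.2 and 322 scaled fragments in the MP libraries and 22.5, 18.2 and 23.8 in the APL libraries (log2 fold change -3.75, SE 0.27, adjusted p = 3.17e-06), and MP library 2 had the lowest of the MP values, still above all APL values.

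The largest increase was that of F7 (chr8:13026034-13035809), the coagulation factor that starts the extrinsic pathway with tissue factor. It had 14.98, 35.2 and 20.7 scaled fragments in the MP libraries and 11175, 13229.8 and 13406 in the APL libraries (log2 fold change 9.08, SE 0.25, adjusted p = 1.78e-08), and its level went from 0.463 to 248 FPKM. The carboxylesterase Ces1d had 29.03, 19.99 and 23.4 scaled fragments in the MP libraries and 2984, 2865 and 2878 in the APL libraries (log2 fold change 6.87, SE 0.14, adjusted p = 5.63e-09). Both genes had few fragments in each MP library and similar values in all APL libraries.

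The 4 next increases were more even in size. 1810033B17Rik, a gene without an assigned name in the table, had 456, 283 and 434 scaled fragments in the MP libraries and 7559, 7799 and 7703 in the APL libraries (log2 fold change 4.33, SE 0.16, adjusted p = 6.55e-08). Ednra, the endothelin receptor type A, had 14.98, 12.4 and 18.04 scaled fragments in the MP libraries and 273, 272 and 311 in the APL libraries (log2 fold change 4.16, SE 0.20, adjusted p = 2.53e-07). Tex15, known from meiosis in germ cells, rose by 4.04 (log2, SE 0.15, adjusted p = 7.32e-08). Pkd1l2, of the polycystin family, rose by 4.58 (log2, SE 0.19, adjusted p = 1.38e-07) and was also the gene nearest above the filter, with a lowest library of 10.3 scaled fragments. In each of these genes all APL values were above all MP values.

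**Figure D2:**
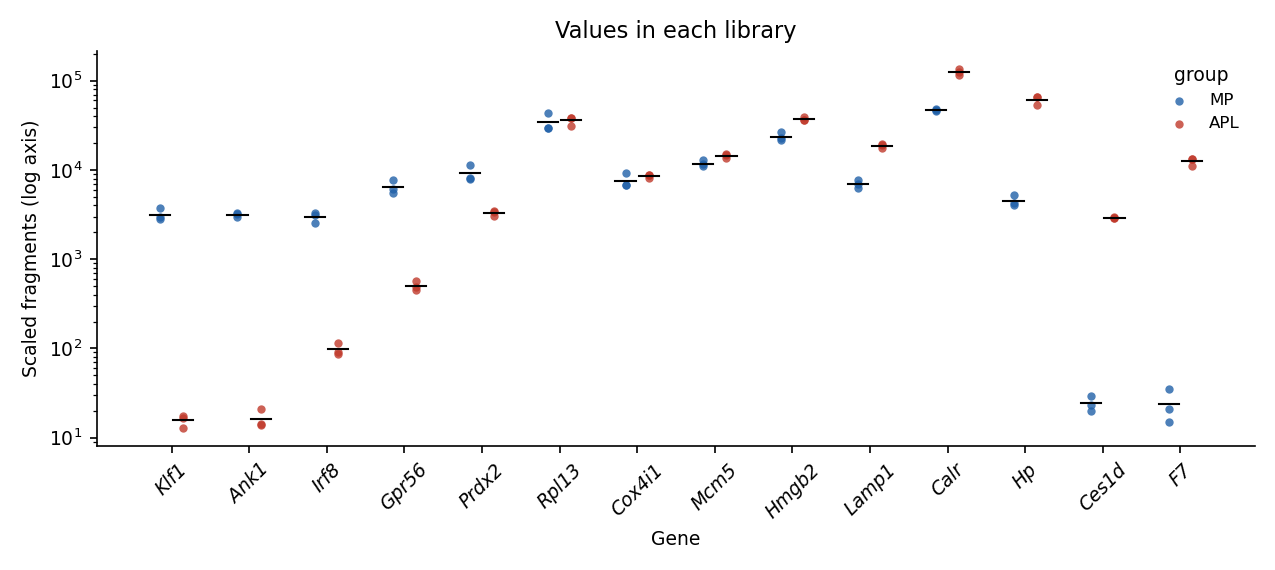
Scaled fragments in each library (vertical axis, logarithmic) for 14 genes of chromosome 8 (horizontal axis), with 3 MP libraries in blue, 3 APL libraries in red, and a black line at the mean of each group. Klf1 and Ank1 at the left and Ces1d and F7 at the right have their groups farthest apart, with F7 at a mean of 23.7 in MP and 12604 in APL libraries, while the groups of Rpl13 and Cox4i1 overlap.

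The shift was present along the whole chromosome. In 13 bins of 10 Mb, the median relative log2 ratio ran from 0.41 (70 to 80 Mb, 99 genes) to 1.23 (50 to 60 Mb, 9 genes), and between 76.7% and 100% of the genes of a bin lay above 0. The bin at 30 to 40 Mb had the next highest median, 0.96 over 22 genes, 13 of which rose and 1 fell. In a running window of 41 neighbouring genes, a width chosen after the values were seen, the median stayed above 0 in all 579 windows. It was lowest, 0.33, around Zfp882 and highest, 0.84, around Lonrf1.

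Of the 9 genes in the 50 to 60 Mb bin, 8 rose. They were Aga (relative log2 ratio 1.805), a lysosomal amidase that breaks down glycoproteins, Sap30 (1.51), a subunit of the Sin3 corepressor complex, Neil3 (1.33), a DNA glycosylase of base repair, Spcs3 (1.23), a subunit of the signal peptidase, Galnt7 (1.12), which starts O-linked sugar chains, the chromatin protein Hmgb2 (0.76), AW046200 (1.28) and BC088983 (0.83). The ninth, Fbxo8, had 0.32 and did not pass the call. The only stretch in which at least 6 neighbours in a row rose was Plcg2, Sdr42e1, Mphosph6, Hsbp1, Mlycd and Osgin1 (chr8:117498291-119446256), with relative log2 ratios between 0.68 (Mphosph6) and 2.18 (Sdr42e1). No 3 neighbours in a row fell, and the 46 decreases were spread over 11 of the 13 bins.

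**Figure D3:**
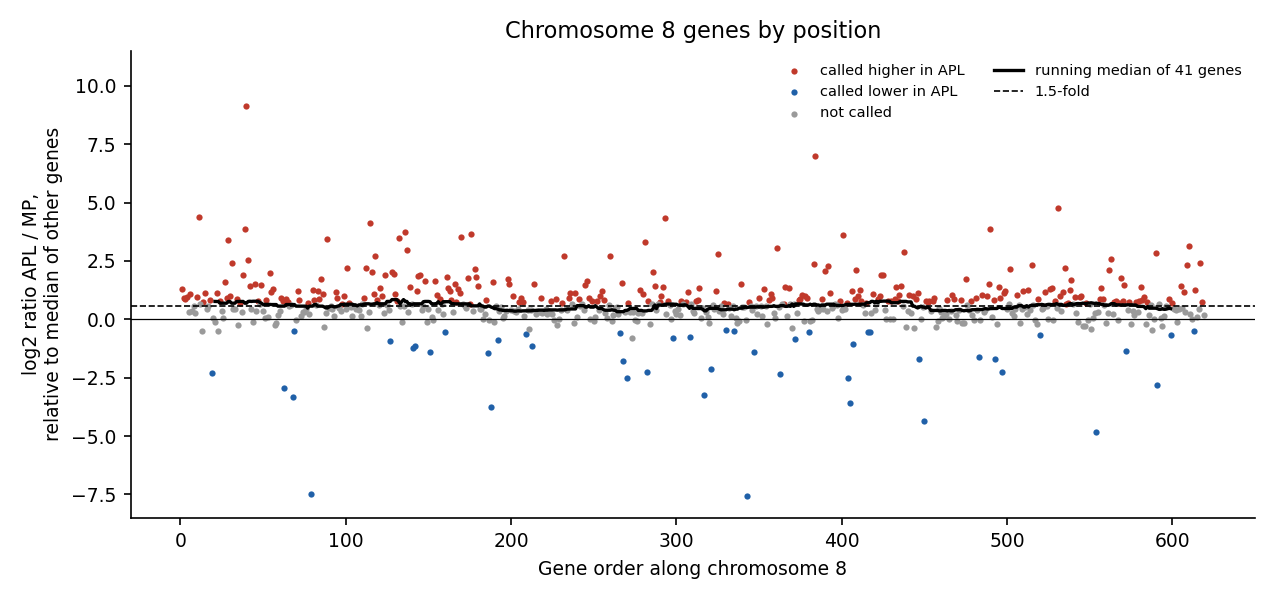
Relative log2 ratio of APL to MP (vertical axis) of the 619 genes in their order along chromosome 8 (horizontal axis), coloured by call, with the running median of 41 genes as a black line, 0 as a thin line and 1.5-fold as a dashed line. The running median stays between 0.33 and 0.84, while single genes that rose or fell lie on both sides of it along the whole chromosome.

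The shift was also found at every level of expression. Genes that passed the filter were divided into 4 classes of equal size by their mean scaled fragments over all libraries, with edges at 365, 954 and 2101. The median relative log2 ratio of chromosome 8 was 0.46 (146 genes) in the lowest class, 0.58 (137) in the second, 0.58 (157) in the third and 0.56 (179) in the highest. The other genes had medians between -0.01 and 0.01 in these classes.

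The spread was widest in the lowest class, on chromosome 8 as among the other genes. The interquartile width was 1.32 in the lowest class and 0.67, 0.55 and 0.67 in the next ones, beside 1.28, 0.83, 0.70 and 0.86 for the other genes. The share above 0 was 69.9% in the lowest class and 83.2%, 88.5% and 87.7% in the next ones. Genes near 1.5-fold made up 39.5% of the third class and 17.1% of the lowest. Of the 46 decreases, 24 were in the lowest class and 5 in each of the third and the highest, among them Prdx2 and Gpr56. The genes that fell made up 16.4%, 8.76%, 3.18% and 2.79% of chromosome 8 from the lowest class to the highest, and 26.9%, 19.4%, 15.4% and 14.8% of the other genes. The increases numbered 62, 64, 61 and 75 from the lowest to the highest. They made up 42.5%, 46.7%, 38.9% and 41.9% of chromosome 8, against 24.5%, 18.2%, 14.7% and 20.3% of the other genes.

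**Figure D4:**
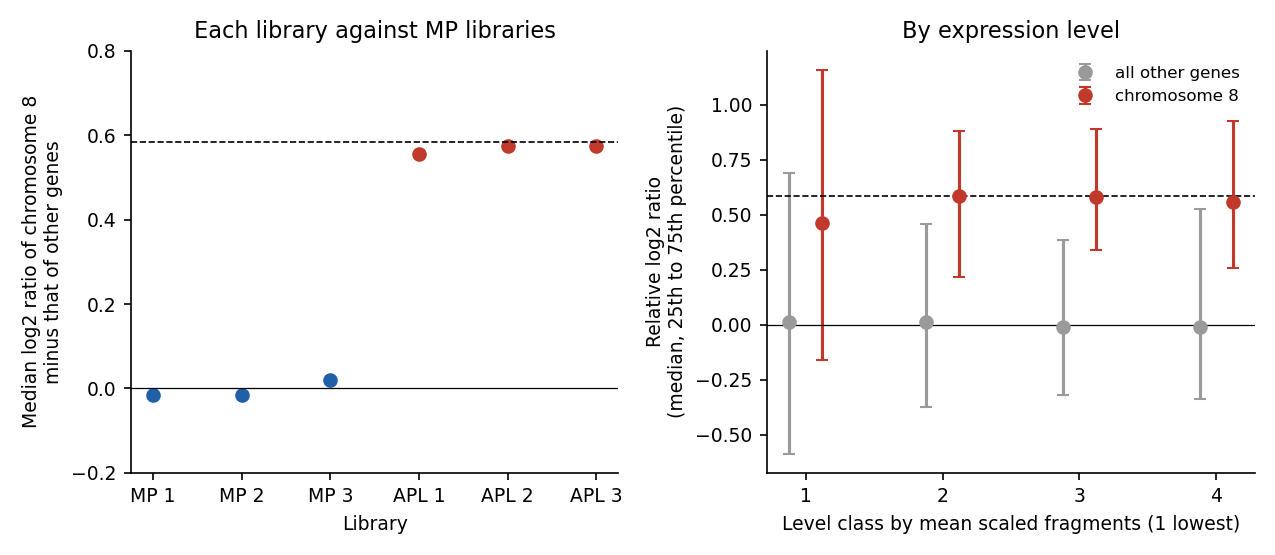
Left, median log2 ratio of the 619 genes of chromosome 8 minus that of the other genes (vertical axis) in each library (horizontal axis) against the other MP libraries, with MP in blue and APL in red. Right, relative log2 ratio (vertical axis) by class of expression level (horizontal axis), as median with bars from the 25th to the 75th percentile, for chromosome 8 in red and other genes in grey. Dashed lines mark 1.5-fold, and the 3 APL libraries sit between 0.56 and 0.58 while the MP libraries sit between -0.02 and 0.02.

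By function, 203 of the 619 genes were in at least 1 of 12 lists, and their median relative log2 ratio was 0.50. The 416 genes in no list had 0.59, of which 181 rose and 32 fell. Over all 619 genes, 42.3% rose and 7.43% fell, against 19.4% and 19.1% of the other genes. A count in a list that lies near the shares of the chromosome is no result about its function. The medians of the lists lay between 0.26 for chromatin regulators and 1.08 for lysosome and granule genes, so each list had its centre above the median of the other genes of the table.

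**Figure D5:**
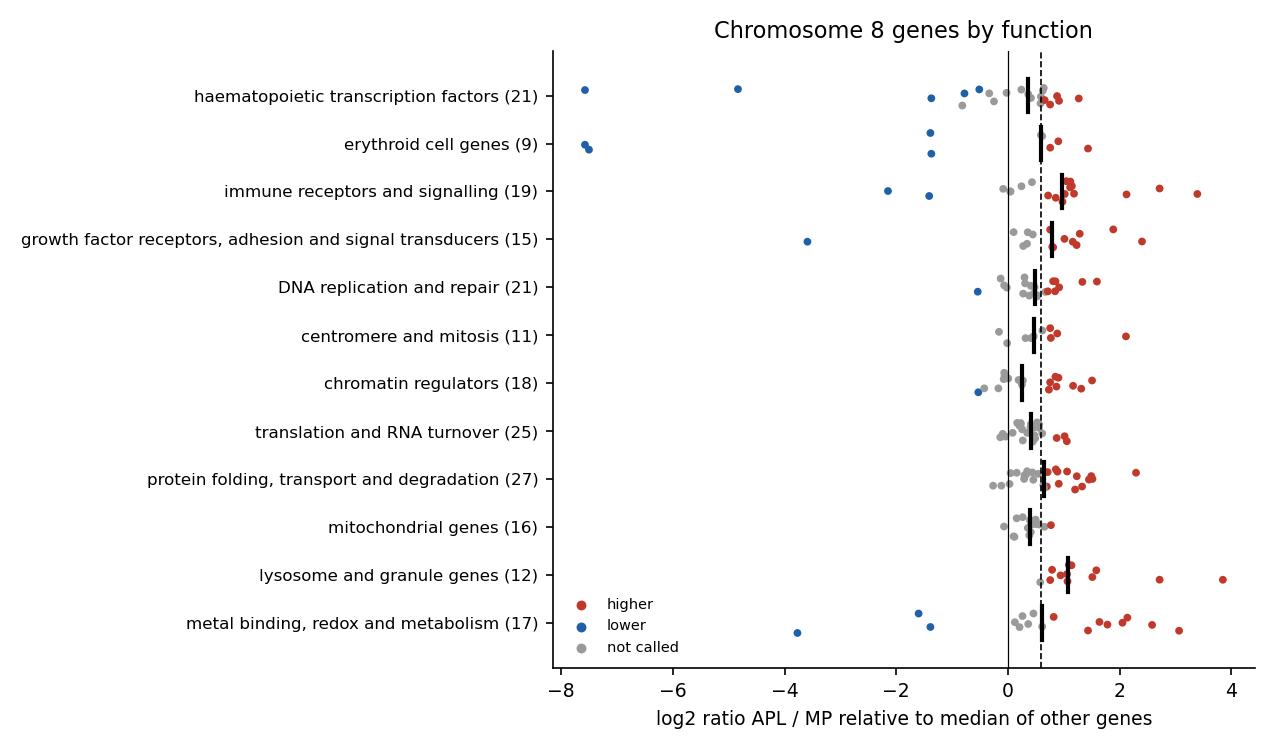
Relative log2 ratio of APL to MP (horizontal axis) of the members of 12 function lists (vertical axis, with the number of genes in brackets), coloured by call, with the median of each list as a black bar, 0 as a thin line and 1.5-fold as a dashed line. Mitochondrial genes and genes of translation and RNA turnover lie close together, while transcription factors and erythroid genes reach from -7.57 to above 1.

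Haematopoietic transcription factors had one of the widest ranges. Of 21, 5 rose and 5 fell, with a median of 0.36, and the genes that fell were Klf1, Irf8, Cbfa2t3, Smad1 and Nfix. The increases were of moderate size. Tfdp1, the partner of E2F factors in cell cycle genes, was the most abundant with a level of 142 FPKM in MP and 210 FPKM in APL cells. It had 7474, 6809 and 7105 scaled fragments in the MP libraries and 9901, 10496 and 10893 in the APL libraries and did not pass the call (log2 fold change 0.55, adjusted p = 0.000204), although it did without APL library 1 (0.59). Ier2, an immediate early gene, just passed it with 3023, 1923 and 3132 scaled fragments in the MP libraries and 3469.8, 4136 and 4348 in the APL libraries (log2 fold change 0.59, SE 0.18, adjusted p = 0.0162). Its call was lost without APL library 2 (adjusted p = 0.062) or library 3 (adjusted p = 0.0613), and without MP library 2, where its log2 fold change was 0.37. It was also lost after quantile normalization (0.51) and with each library at the same total (0.46). The core binding factor subunit Cbfb, Irf2bp2, Rbl2 and Tcf25 rose too.

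Erythroid genes divided into large decreases and smaller increases. Of 9, 4 fell (Klf1, Ank1, Cbfa2t3 and Prdx2) and 3 rose (Hmox1, Cyb5b and Dnase2a), with a median of 0.59. Prdx2, a peroxiredoxin that is abundant in red cells, had 7959, 8090.0 and 11416 scaled fragments in the MP libraries and 3039, 3437 and 3371 in the APL libraries (log2 fold change -1.46, SE 0.14, adjusted p = 1.64e-05), and MP library 3 had the highest value. Zfpm1, below the filter, also fell. The 3 genes that rose are used by many cell types: Hmox1 breaks down haem, Dnase2a digests DNA in lysosomes, and Cyb5b is a cytochrome b5 of the mitochondrial outer membrane. Beside these values, the summed level of 7 erythroid markers, Klf1 among them, was 341 to 374 FPKM in the MP and 37.9 to 47.0 FPKM in the APL libraries, with 6 of the 7 lower and Hbb-b1 not tested. The summed level of 4 megakaryocyte markers was 65.3 to 100 FPKM and 1.22 to 1.99 FPKM, and all 4 fell. The part of such cells in the decreases of chromosome 8 was not tested.

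Immune receptors and signalling genes had one of the higher medians, 0.98, and 12 of 19 rose while 2 fell, the cytokine receptor Il27ra among them. Cyba, a subunit of the phagocyte oxidase, had 1662, 1348 and 1997 scaled fragments in the MP libraries and 6009, 7597 and 6849 in the APL libraries (log2 fold change 2.04, SE 0.14, adjusted p = 2.59e-06). Tnfsf13b, the B cell activating factor BAFF, had 59.00, 51.4 and 53.2 scaled fragments in the MP libraries and 523, 524 and 563 in the APL libraries (log2 fold change 3.28, SE 0.13, adjusted p = 8.29e-08). Cotl1, which binds actin, rose by 0.89 (log2, SE 0.14, adjusted p = 0.000367). Ifi30, Bst2 and Nlrc5 rose as well, with relative log2 ratios of 2.71, 1.02 and 1.14.

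Growth factor receptors, adhesion molecules and signal transducers had a median of 0.79, with 9 of 15 that rose and 1 (Gpr56) that fell. The filter left out 4 further genes of this list that were tested, Arhgef10, Inpp4b, Fgfr1 and Cdh1, and all 4 fell. Gpr97, an adhesion receptor encoded beside Gpr56, went the other way with 5963, 4916 and 5839 scaled fragments in the MP libraries and 11523, 12589 and 12669 in the APL libraries (log2 fold change 1.14, SE 0.09, adjusted p = 7.17e-06). Itgb1, the integrin beta 1 chain, had 6207, 6316 and 6585 scaled fragments in the MP libraries and 10034, 10023 and 10227 in the APL libraries (log2 fold change 0.66, SE 0.07, adjusted p = 2.79e-05), but its log2 fold change was 0.57 after quantile normalization and 0.53 with each library at the same total, both below the threshold. The insulin receptor Insr, its substrate Irs2 and the coreceptor Nrp1 had relative log2 ratios of 1.28, 1.01 and 2.40 and rose.

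Genes of lysosomes and granules stood highest, with a median of 1.08. Of 12, 11 rose and none fell, and the remaining gene, the chloride and proton exchanger Clcn3, had a relative log2 ratio of 0.58. Hp had 5289.6, 4050.2 and 4271 scaled fragments in the MP libraries and 53630.4, 65153 and 65004 in the APL libraries (log2 fold change 3.76, SE 0.13, adjusted p = 4.23e-08), and its level rose from 135 to 1841 FPKM. Lamp1, the main glycoprotein of the lysosome membrane, had 6943, 6279 and 7785 scaled fragments in the MP libraries and 17573, 19078 and 19516 in the APL libraries (log2 fold change 1.42, SE 0.10, adjusted p = 2.28e-06). The other genes that rose included subunits of the proton pump (Atp6v0d1, 1.14, and Atp6v1b2, 1.58), the channel Mcoln1 (1.09), the mannosidase Man2b1 (1.07) and the thiol reductase Ifi30 (2.71). The summed level of the neutrophil granule markers Mpo, Elane, Prtn3 and Ctsg, on other chromosomes, was 8378 to 9460 FPKM in the MP and 22920 to 27383 FPKM in the APL libraries, with 3 of the 4 higher. Its part in these increases was not tested.

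Genes of protein folding, transport and degradation had a median of 0.65. Of 27, 13 rose and none fell, beside 42.3% and 7.43% of all 619 genes. Calr had 48315, 46458 and 45548 scaled fragments in the MP libraries and 115520, 123922 and 136247 in the APL libraries (log2 fold change 1.42, SE 0.14, adjusted p = 2.05e-05). Herpud1, a membrane protein of the endoplasmic reticulum that takes part in the removal of misfolded proteins, had 1736, 1826 and 1965 scaled fragments in the MP libraries and 7754, 8821 and 8836 in the APL libraries (log2 fold change 2.199, SE 0.08, adjusted p = 6.38e-08). Cope, a coat protein of vesicles from the Golgi, rose by 1.40 (log2, SE 0.12, adjusted p = 1.14e-05). The autophagy genes Map1lc3b and Gabarapl2 rose, with relative log2 ratios of 1.33 and 0.86, whereas the proteasome subunits Psmd7 and Psmb10 had 0.29 and 0.05 and did not pass the call.

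Genes of translation and RNA turnover and mitochondrial genes had the narrowest ranges of the 12 lists, from -0.14 to 1.05 and from -0.07 to 0.77. Of 25 genes of translation and RNA turnover, 3 rose (Aars, Lsm4 and Dhx38) and none fell, and 22 lay above 0, with a median of 0.41. The ribosomal protein gene Rpl13 had 29335, 29409 and 43388 scaled fragments in the MP libraries and 30912, 38644 and 37915 in the APL libraries. Its groups overlapped, MP library 3 had the highest of all values, and its log2 fold change of 0.09 (SE 0.17) turned to -0.04 with each library at the same total. It has near-identical copies elsewhere in the genome, so its fragments may be divided among loci. Aars, the alanyl-tRNA synthetase, whose locus overlaps that of another gene, rose by 0.96 (log2, SE 0.07, adjusted p = 4.64e-06).

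Of 16 mitochondrial genes, 15 lay above 0 with a median of 0.40, and 1, Ciapin1, rose, by 0.68 (log2, SE 0.10, adjusted p = 0.000237), a call lost with each library at the same total (0.55). Ciapin1 acts in the assembly of iron and sulphur clusters in the cytosol and between the mitochondrial membranes. Cox4i1, a subunit of cytochrome c oxidase, had 6753, 6784 and 9191 scaled fragments in the MP libraries and 8087, 8704 and 8828 in the APL libraries, and MP library 3 lay above all APL libraries. Ndufb7, of complex I, had 1293, 1273 and 1756 scaled fragments in the MP libraries and 1778, 2192 and 2412 in the APL libraries (log2 fold change 0.57, SE 0.15). It passed the call without MP library 3 (0.72) or APL library 1 (0.69), with FPKM (0.603) and with scaling by the median ratio (0.67).

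Genes of the cell cycle had medians somewhat below that of the chromosome. Of 21 genes of DNA replication and repair, 7 rose and 1 (Dctd) fell, with a median of 0.48. Mcm5, a subunit of the replicative helicase, had 11577, 10971 and 12765 scaled fragments in the MP libraries and 13430.3, 15133 and 14617 in the APL libraries, a log2 fold change of 0.29 that did not pass the call. Cdt1, which loads that helicase, rose by 0.62 (log2, SE 0.11, adjusted p = 0.000842), a call lost without MP library 1 (0.58), MP library 2 (0.57) or APL library 2 (0.54), after quantile normalization (0.52) and with each library at the same total (0.49). Lig4, the ligase of non-homologous end joining, had 172, 186 and 152 scaled fragments in the MP libraries and 509, 466 and 470.2 in the APL libraries (log2 fold change 1.499, SE 0.12, adjusted p = 5.03e-06).

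Of 11 genes of centromeres and mitosis, 4 rose and none fell, with a median of 0.46. Kifc3, a kinesin whose locus overlaps that of another gene, rose most, by 2.01 (log2, SE 0.11, adjusted p = 6.54e-07). Chmp1a, of the membrane-cutting ESCRT complex, rose by 0.66 (SE 0.11, adjusted p = 0.000532), a call lost with each library at the same total (0.53). Vps4a, the ATPase that takes this complex apart, had a log2 fold change of 0.53 and did not pass the call, but did without MP library 3 (0.62).

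Of 18 chromatin regulators, 8 rose and 1 (Setd6) fell, with the lowest median of the 12 lists, 0.26. Hmgb2, a DNA-bending protein of dividing cells, had 22535, 21834 and 26317 scaled fragments in the MP libraries and 36380.4, 36483 and 39127 in the APL libraries (log2 fold change 0.67, SE 0.11, adjusted p = 0.000572), but its log2 fold change was 0.57 after quantile normalization and 0.54 with each library at the same total. Smarca5, the ATPase of ISWI remodelling complexes, had 8982, 8692 and 7627 scaled fragments in the MP libraries and 8993, 8697 and 9394 in the APL libraries, with overlapping groups and a log2 fold change of 0.10 that turned to -0.03 with each library at the same total. Sap30 rose by 1.41 (log2, SE 0.11, adjusted p = 5.02e-06). The insulator protein Ctcf had a relative log2 ratio of 0.01.

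Metal-binding, redox and metabolic genes had a median of 0.61 and a wide range. Of 17, 8 rose and 3 fell (Lpl, Nqo1 and Prdx2). The metallothionein Mt1, which binds zinc and copper, had 1808, 1914 and 2582 scaled fragments in the MP libraries and 7047, 7784 and 9660.3 in the APL libraries (log2 fold change 1.96, SE 0.15, adjusted p = 5.46e-06). Mvd and Sc4mol, of cholesterol synthesis, the alanine transaminase Gpt2 and the purine salvage enzyme Aprt rose with relative log2 ratios of 2.58, 2.14, 3.06 and 1.78.

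The filter left out 234 genes of the chromosome, 75 of which had too little signal to be tested. Of the 159 that were tested, 65 rose, 47 fell and 47 did not pass the call. A gene that was silent in 1 group could not pass the filter, so the most extreme genes of the chromosome were among these. Just outside it were Pbx4, Mtss1l and Zfpm1, each with a lowest library of 9.43 scaled fragments, and just inside it Pkd1l2 (10.3), Cd209c (10.8) and 4930432K21Rik (11.4). Over all 778 genes tested on the chromosome, 327 (42%) rose and 93 (12%) fell, against 21.7% and 24.4% of all genes tested. The count of decreases thus went from 46 to 93 when the filter was lifted.

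Zfpm1 had 3855, 4204 and 4554 scaled fragments in the MP libraries and 9.43, 32.1 and 27.2 in the APL libraries (log2 fold change -7.62, SE 0.37, adjusted p = 2.87e-07). Its log2 fold change lay near those of Klf1 and Ank1. Sh2d4a, an SH2 domain adaptor, had 509, 448 and 448 scaled fragments in the MP libraries and 1.18, 0 and 0 in the APL libraries, which is at least 143-fold lower when the APL group is set to the floor of 3 fragments. On the other side, Tenm3, a teneurin of cell adhesion, had 0, 0.952 and 0.902 scaled fragments in the MP libraries and 761, 686 and 681 in the APL libraries, at least 254-fold higher. The carboxylesterase Ces2c had 212, 237 and 208 scaled fragments in the APL libraries and less than 1 in each MP library, at least 78.5-fold higher, although it has close paralogs beside it. Clec3a, a C-type lectin, had 0, 7.62 and 2.71 scaled fragments in the MP libraries and 3643, 3616 and 3662 in the APL libraries and rose (SE 0.63, adjusted p = 1.23e-06). Its MP values were too low for a fold to be given.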

How the data were processed

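RNA sequencing covered 6 libraries, 3 of normal MPs and 3 of c-Kit+ APL cells, grouped by the sample titles. The authors deposited one table that lists for every gene a locus and, for each library, an FPKM value and fragments. The deposited fragments are a signal, namely estimated fragments multiplied by a library factor, since 81.5% to 87.1% of nonzero values were whole multiples (within 0.01 fragment) of a step of the library. Depth is the total divided by this step. The deposited FPKM values, made by the authors, are per transcript length and library size. STAR with mm9, HTSeq-count and DESeq2 are the tools in the paper's methods. The submitters' processing notes name CASAVA 1.8, TopHat2 2.0.6 and mm10. The tool that made the table is not given in the sources used here. Of 853 loci, 848 overlapped the RefSeq gene of the same identifier on GRCm38, so coordinates are given on that build, counted from 1. Of the 619 genes, 91 shared a locus with another gene.

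Because the fragments were scaled, limma 3.58.1 in R 4.3.3 (lmFit, eBayes with a trend) was used on log2(scaled fragments + 1) rather than a count test, for genes with at least 1 scaled fragment in at least 3 libraries, two-sided, with Benjamini-Hochberg adjustment over all 14595 genes. Fold changes are on this scale and understate changes of low genes, and relative log2 ratios use means without the pseudocount. Where every library of a group had at most 3 fragments, the fold is a lower bound against that floor, which covers counting error only. No p was computed over lists of genes.

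The members, lists and tests were chosen with earlier results of these data known. Named genes were Irf8 and Zfpm1, the 6 largest increases and decreases called, the 5 genes nearest to 1.5-fold in the class of highest mean fragments, in each list the 2 genes of highest FPKM and the called gene of largest change, and the 3 largest changes each way below the filter. The values of some genes that this rule names are not reported here. Other genes were named after their values were seen, as were the promoters and neighbouring genes. The labels number the libraries 1 to 3 in each group, and the test used no block. Calls and medians were recomputed under 17 alternatives and 1 added later. Figures were drawn with matplotlib 3.10.9.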

Additional observations from a re-analysis of the deposited data

How the results depend on the processing

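The median shift and the share above the other genes kept their direction under every alternative run on them, which covered the filter, pseudocount, scaling, FPKM and each library left out. The shift was 0.547 with FPKM, 0.607 for genes with at least 1 scaled fragment in at least 3 libraries, 0.584 with at least 100 in all, 0.586 against genes on neither chromosome 8 nor 15 and 0.588 for the genes outside the function lists, a set added after the values were seen. The share above was 83.2% with FPKM and with quantile normalization, 79.6% and 86.6% with the looser and the stricter filter and 83.8% against genes on neither chromosome. Genes called lower numbered 93 and 22 with the looser and stricter filter, which change the genes counted. With a fold change over 2, 128 genes were higher and 30 lower. The shares of the other genes at this threshold are not given here, so these counts have no background. Outside the lists 113 genes lay near 1.5-fold.

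With 1 library left out, 253 to 280 genes were higher, 42 to 47 lower, 164 to 171 near 1.5-fold, the shift was 0.552 to 0.569 and the share 81.4% to 83.4%. An arm of 2 libraries gives these less precision.

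Of 624 recomputed values of 52 named genes, 16 lost and 15 gained a call, and 39 genes had the same call throughout. Chmp1a, Ciapin1, Ier2, Itgb1, Cdt1 and Hmgb2 lost theirs with each library at the same total, Ier2, Itgb1, Cdt1 and Hmgb2 also with quantile normalization, and Xab2, Lyl1, Glt25d1, Slc7a5, Tfdp1, Vps4a and Ndufb7 gained one with the median ratio, Ndufb7 also with FPKM. Smarca5, not called, reversed to -0.00165 (quantile) and -0.0298 (same total), and Rpl13, not called, to -0.00347 and -0.0391, and to -0.00305 and -0.00121 without MP libraries 1 and 2, its highest value with 1 library left out being 0.279. The cause of these changes was not tested.

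The numbers of the libraries were not shown to pair them. Libraries with the same number deviated from the means of their groups with correlations of -0.133 to 0.261, other pairs of -0.458 to 0.357, and not every library correlated best with its own number. With the replicate block, 261 genes were higher and 46 lower, and 307 of 308 calls were shared with the same direction.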

Other observations

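Some gene families of chromosome 8, grouped after their values were seen, held neighbours with very different changes. Over all genes tested on the chromosome, 42% rose and 12% fell. Of 8 carboxylesterase genes, 7 were tested and 6 rose: Ces1d, Ces5a, Ces2b, Ces2c, Ces2d-ps and Ces2e. All but Ces1d had under 6 scaled fragments in every MP library, and APL values ranged from 4.71 (Ces5a) to 237 (Ces2c). Ces2g, which lies beside the other Ces2 genes, had 6644, 7259 and 9167 scaled fragments in the MP libraries and 7124, 7352 and 7243 in the APL libraries, and these groups overlapped (log2 fold change -0.07, SE 0.11). The Ces2 genes are close paralogs, and fragments may be divided among them. Among the adhesion receptor genes, Gpr56 and Lphn1 fell, with log2 fold changes of -3.67 and -3.34, Gpr97 rose by 1.14, and Cd97 had -0.04 and did not pass the call. Gpr56 and Gpr97 are neighbours.

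The coagulation factor genes F7, F10 and Proz, which lie side by side, all rose, with log2 fold changes of 9.08, 2.46 and 1.33. F10, the factor that F7 activates, had 473, 356 and 381 scaled fragments in the MP libraries and 1992, 2252 and 2375 in the APL libraries (adjusted p = 2.78e-07). Gas6, a related ligand of receptor tyrosine kinases, had -0.79 and did not pass the call. Of the metallothioneins, Mt1 rose by 1.96, while its neighbour Mt2 had 0.35 (SE 0.18) and overlapping groups. Of 22 zinc finger genes tested, 5 rose, 3 fell and the rest did not pass the call. The shares that rose and fell were 42% and 12% of the genes tested on the chromosome. They were 21.7% and 24.4% of all genes tested. Apart from the genes named above, Cldn23 and Dpep3 had no fragment in any MP library and 210 to 212 and 159 to 178 scaled fragments in the APL libraries, at least 75.5-fold and 61.5-fold higher.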
